A study of Mus musculus with 4 samples.

Results

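The nuclei described here were picked by a gate on marker genes of Sertoli cells, the somatic cells of the seminiferous tubule, from single-nucleus RNA-seq (snRNA-seq) of whole mouse testes. A barcode was a member when it held at least 1000 UMIs (unique molecular identifiers, each standing for 1 captured RNA molecule) and 500 to 5000 genes, had a UMI in at least 3 of the 8 Sertoli genes Wt1, Gpm6b, Mageb18, Fshr, Sox9, Rhox8, Amhr2 and Cldn11, and had a UMI in fewer than 3 of the 5 Leydig genes Cyp11a1, Hsd3b6, Hsd17b3, Insl3 and Prlr. Of 36152 barcodes past the same depth filter, 620 were members, and the other 35532 were used for comparison. WT replicates 1 and 2 held 100 and 27 members, Dhx37-/- replicates 1 and 2 held 192 and 301.

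The study asked what loss of Dhx37, an RNA helicase that acts in assembly of the small ribosomal subunit, does in Sertoli cells. Its 4 libraries came from mice of 8 weeks, 2 WT and 2 Dhx37-/-, which the labels call biological replicates without stating how many animals each holds, so that p-values measure only the spread between these libraries. The Dhx37-/- mice carried Dhx37 alleles with loxP sites around exon 2 on both chromosomes together with an Amh-Cre transgene on a C57BL/6-based line, and WT littermates were the controls. The Amh promoter drives Cre in Sertoli cells from fetal life on, so the deletion is directed at Sertoli cells and the other nuclei of the same testis are meant to keep an intact gene. All nuclei of the testis were loaded together without a sort, and the 3' reads can still be counted from a transcript that lacks exon 2.

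Sertoli cells line the seminiferous tubule, embrace germ cells of every stage and supply them with lactate, metal carriers and growth factors. Junctions between neighbouring Sertoli cells form the blood-testis barrier, which closes off meiotic and later germ cells from the blood, and bundles of actin anchor elongating spermatids to the Sertoli surface. The cells respond to follicle-stimulating hormone through Fshr, hold their male fate through Sox9, Wt1, Gata4 and Dmrt1, and engulf the cytoplasm and dying cells that germ cells leave behind.

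The files held 66811225, 51797891, 65953881 and 75611263 UMIs in WT replicates 1 and 2 and Dhx37-/- replicates 1 and 2, an order kept for every set of 4 values that follows. Levels are given as CPM, the UMIs of a gene per 1000000 UMIs summed over the nuclei of one kind in one library. The members summed to 684446, 169602, 1369338 and 2406364 UMIs, so that WT replicate 2 with its 27 nuclei was the least precise. A member held a median of 6239, 6193, 7388.5 and 8036 UMIs, against 3320, 3710, 3781 and 4147 in the other barcodes. No barcode sequence was shared between members of different libraries. Scrublet, a doublet caller, marked 8, 1, 9 and 12 members, which were kept.

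The gate genes chose the members, and their levels are a description of that choice. Wt1, a transcription factor of the gonadal somatic lineage, stood at 865, 578, 653 and 738 CPM in the members and 11, 3.83, 9.26 and 7.32 CPM in the other barcodes. Fshr, the receptor for follicle-stimulating hormone, stood at 338, 330.2, 241 and 252 CPM and Sox9, the testis-determining factor downstream of Sry, at 83.3, 29.5, 126 and 96 CPM. Gpm6b, a membrane proteolipid, stood at 1232, 1415, 1095 and 1442 CPM against 11, 8.1, 11.7 and 13.6 CPM. Mageb18, a member of the MAGE family, supplied the most UMIs, with 6011, 5259, 4545 and 5499.6 CPM, but its reads may be shared with close copies such as Mageb16. The 8 genes together made up 9066, 8278, 7394 and 8741 CPM of the members.

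Members with exactly 3 gate genes numbered 36, 10, 53 and 71, and members with 4 to 8 numbered 64, 17, 139 and 230. Just outside the threshold, 303, 120, 298 and 404 barcodes had a UMI in 2 gate genes. Nuclei just inside were shallower than those well inside, with a median of 3737, 4582, 3764 and 4545 UMIs against 8305, 7758, 8283 and 8749. Those with 2 gate genes held a median of 3607, 4032, 4244.5 and 4459 UMIs, close to the nuclei with 3.

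Gata4, a zinc finger factor that Sertoli cells need and the gate did not use, differed in level with the number of gate genes found. It stood at 10.6, 5.49, 8.46 and 7.13 CPM in barcodes with no gate gene, 15.4, 22.1, 42.7 and 13.3 CPM with 2, 47.7, 39.9, 60.6 and 25.4 CPM with 3 and 371, 249.9, 224 and 372 CPM with 4 to 5. With 6 it reached 684, 348, 446 and 525 CPM and with 7 to 8 it was at 464, 540.1, 515 and 519 CPM. For Gata4 the step between 3 and 4 genes was larger than the spread among libraries. In Gata4 level the nuclei at exactly 3 lay nearer to the other barcodes than to the rest of the members. Clu, a secreted product, differed from this in Dhx37-/-. It stood at 136, 39.9, 465 and 345 CPM with 3 gate genes and 212, 289, 389 and 303 CPM with 7 to 8. Nuclei with exactly 3 gate genes made up 36.0% and 37.0% of the WT members but 27.6% and 23.6% of the Dhx37-/- members. The comparisons of genotypes below therefore also give the 450 nuclei with 4 to 8 gate genes. Those 450 are part of the members, so like values in both sets are not independent.

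**Figure D1:**
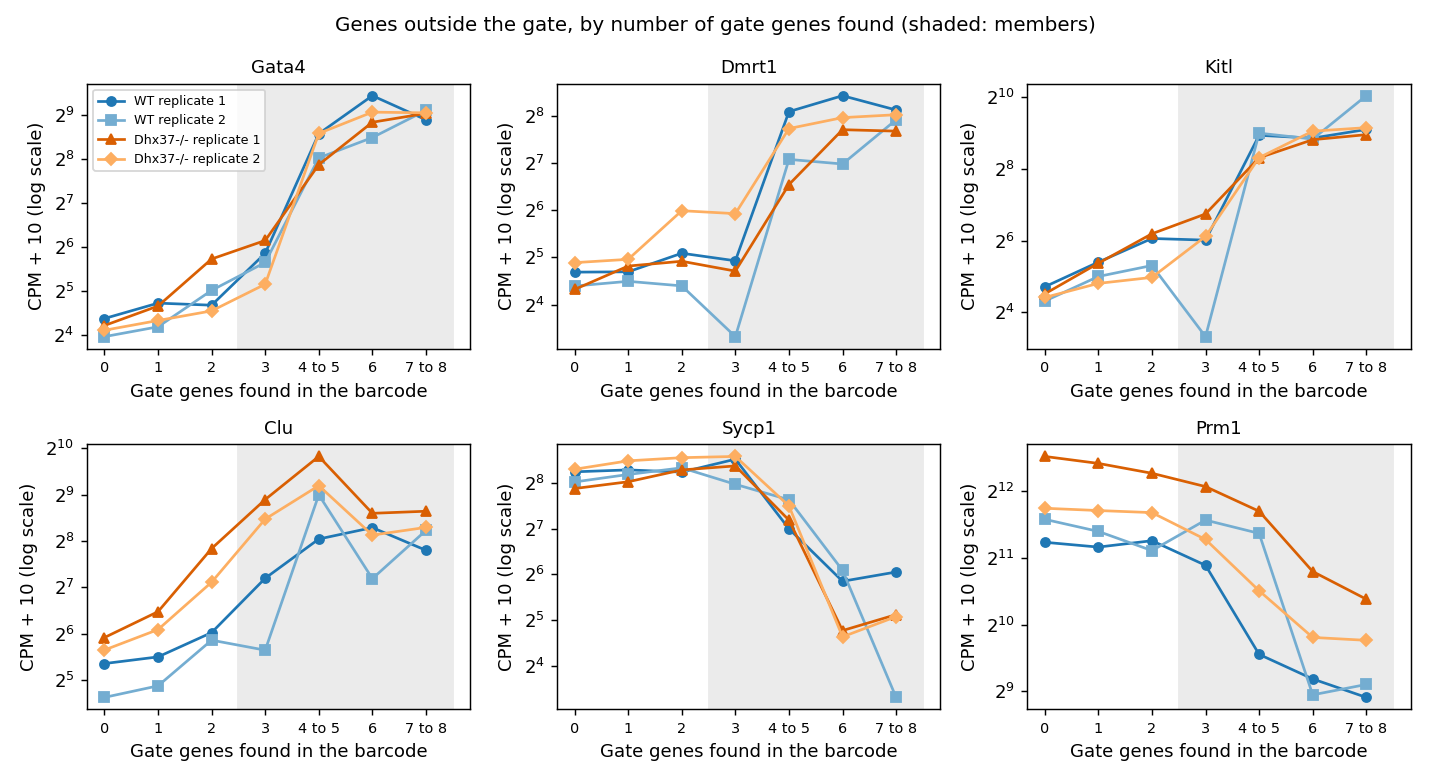
Level of 6 genes outside the gate (CPM + 10, log axis) against the number of Sertoli gate genes found in a barcode, with 1 line per library (2 WT, 2 Dhx37-/-) and the members shaded. Gata4 was at 25.4 to 60.6 CPM in nuclei with exactly 3 gate genes and at 464 to 540 CPM with 7 to 8.

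Outside the gate, the members carried regulators and receptors of Sertoli cells, which Leydig nuclei (defined below) carried too. The regulator list summed to 1479, 1250, 1469 and 1584.5 CPM in the members and 1064, 866, 1079 and 1006 CPM in Leydig nuclei. The receptor list summed to 3241, 3443, 3568 and 3656 CPM against 4593, 3957, 3679.5 and 3473 CPM. A gene was counted as raised when it reached 50 CPM in the members of every library and stood at least 2-fold above the other barcodes in every library, with 10 CPM added to both levels. Of 3288 genes at 50 CPM, 1266 were raised (38.5%), and with 4 to 8 gate genes 1594 of 3195 were raised (49.9%). These counts carry no test, since the gate and the comparison use the same nuclei.

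All 4 regulators at that level were raised, among them Gata4, Dmrt1 and Etv5. Gata4 stood at 400.3, 307, 378 and 435 CPM in the members and at 18.8, 10.5, 29.3 and 18.8 CPM in the other barcodes. Dmrt1, which keeps Sertoli cells from turning toward the granulosa fate, stood at 226, 118, 148 and 214 CPM against 15.6, 11.1, 11.9 and 20.8 CPM. For both Gata4 and Dmrt1 the lowest library of the members lay above the highest library of the other barcodes.

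Of 9 hormone and growth factor receptors at 50 CPM, 6 were raised, among them Igf1r, Bmpr1a, Bmpr2, Erbb4 and Vdr. Kitl, the ligand that Sertoli cells present to the Kit receptor of spermatogonia, was the only niche ligand at that level and stood at 409, 501, 380.5 and 453 CPM against 32, 16.7, 36 and 29.5 CPM. Amh, the hormone of immature Sertoli cells whose promoter drives the Cre, was nearly absent at 1.46, 0, 0.73 and 0 CPM, which for the libraries at 0 is a count of 0 UMIs. Foxl2, the granulosa factor, had 0 UMIs in the members of every library, which allows up to 3 UMIs in each. The members thus had 4 of the 15 listed Sertoli regulators at 50 CPM, with almost no Amh and no Foxl2 UMIs. Amh and Foxl2 do not stand for all immature Sertoli and granulosa genes. A list of 15 such genes had 3 at 0 UMIs. It summed to 73.1, 82.5, 88.4 and 82.7 CPM, against 168, 193, 188 and 203 CPM in the other barcodes. Whether these levels mark an adult state was not tested.

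The 20 leading genes, ranked by their smallest excess over the other barcodes in any library, ran from a log2 ratio of 5.25 for Gm14569 to 4.36 for Lama1 in that lowest library. Daam2 and Diaph2 encode formins, Wipf3 an actin regulator, Kif21a a kinesin, Dtna a dystrophin-complex protein and Lama1 a laminin chain of the basement membrane. Daam2 stood at 576, 519, 515 and 589 CPM in the members and 8.99, 5.85, 7.24 and 9.17 CPM in the other barcodes. Lama1 stood at 409, 366, 507 and 579 CPM against 10.3, 2.54, 10 and 10 CPM, and Corin, a membrane serine protease, at 929, 619, 642 and 786 CPM against 18.9, 10.8, 10.4 and 15.3 CPM. Lpar3 is a receptor for lysophosphatidic acid, Fyn a Src-family kinase, Reep1 an endoplasmic reticulum shaping protein and Mcf2 an exchange factor for small GTPases. Wt1os lies antisense to the gate gene Wt1, and without the strand setting of the counting its reads cannot be told apart from those of Wt1.

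Some leading genes were also read in Leydig nuclei. Diaph2 stood at 636, 427, 446 and 433 CPM in the nuclei that met a mirror-image gate on the Leydig genes (at least 3 of those 5 and fewer than 3 Sertoli genes), against 2693, 2323, 2622 and 2849.9 CPM in the members. Daam2 stood at 17.1, 26, 9.32 and 14.9 CPM there and Lama1 at 93, 44.8, 55.4 and 65 CPM. With 4 to 8 gate genes, 19 of the 20 leading genes were the same and Sh3d19 took the place of Abtb2.

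**Figure D2:**
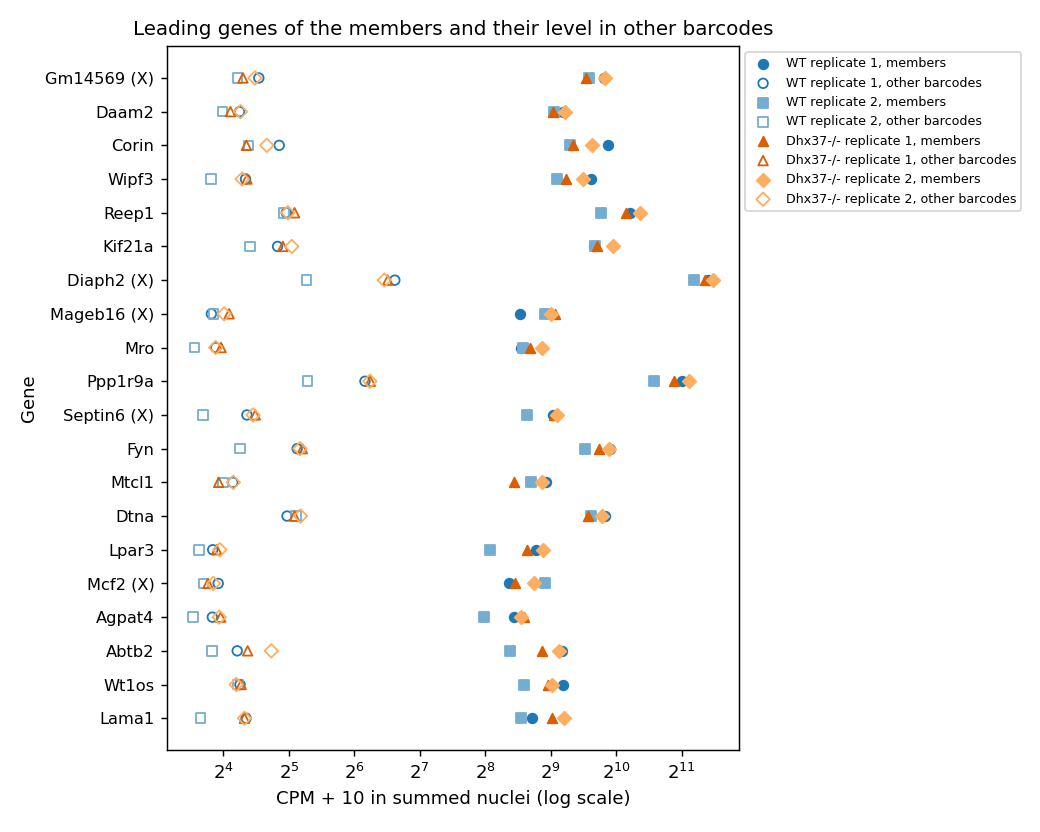
The 20 leading genes of the members, with CPM + 10 on a log axis, a filled point for the members and an open point for the other barcodes of each library, and (X) for a gene on the X chromosome. In every library the filled points of all 20 genes lie to the right of the open points, by a log2 ratio of at least 4.36.

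5 of the 20 leading genes lie on the X chromosome, which is silenced in meiotic germ cells and stays low in spermatids. X-linked genes outside the gate took 3.22, 3.52, 3.49 and 3.56% of the members' UMIs and 1.07, 0.956, 1.25 and 1.20% of those of the other barcodes. Nuclei with 4 to 8 gate genes reached 3.79, 4.43, 3.86 and 3.94%, and nuclei with exactly 3 stood at 1.10, 1.33, 1.79 and 1.37%. Nuclei of the Leydig gate, which are somatic as well, had 2.79, 2.34, 2.53 and 2.55%. Of 105 X-linked genes at 50 CPM in the members of every library, 94 were raised.

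Junction genes of the blood-testis barrier were raised in 12 of 18 cases, and in 14 of 18 with 4 to 8 gate genes. Cdh2, the N-cadherin of Sertoli adherens junctions, stood at 757, 560.1, 576 and 659 CPM in the members and 40.4, 39.4, 38.9 and 43.9 CPM in the other barcodes. Gja1, the gap junction protein connexin 43, stood at 104, 70.8, 110.3 and 99.7 CPM against 14.1, 13, 16.2 and 15 CPM. Tjp1 (the scaffold ZO-1), Jam2, Cgn, Ctnna1, Ctnnb1, Espn (an actin bundler of the ectoplasmic specialization), Itga6, Itgb1, Vcl and Eps8 made up the rest. Of 15 genes of the actin cytoskeleton at 50 CPM, 6 were raised, namely Actn4, Cdc42, Actr2, Wasl, Cttn and Mark4, a share near the 38.5% of all genes, and with 4 to 8 gate genes 10 of 16 were, against 49.9%.

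Secreted products of Sertoli cells were raised in 5 of 6 cases, namely Clu, Cst9, Cst12, Ctsl and Defb19. The whole list summed to 935, 1303, 2505 and 1904 CPM in the members and, higher in every library, to 1813, 2574, 5099 and 3843 CPM in Leydig nuclei. Clu, the secreted chaperone clusterin, stood at 219, 189, 471 and 326 CPM against 35.7, 18.6, 75.6 and 58.3 CPM. Ctsl, a lysosomal protease that Sertoli cells release, stood at 104, 295, 499 and 356 CPM against 29.3, 27.6, 77.6 and 61 CPM. Cst9 and Cst12 are close copies of a cystatin family, and counting could split their reads.

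Engulfment genes were raised in 7 of 12 cases, and in 10 of 14 with 4 to 8 gate genes, among them all 3 receptors of the family that binds dying cells, Mertk, Axl and Tyro3, with their ligand Pros1 and the engulfment pair Elmo1 and Dock1. The list was at a like level in Leydig nuclei, with sums of 6031, 3110, 3540 and 4158 CPM against 4212, 3679, 4037 and 4522 CPM in the members. Of 9 genes of glucose and lactate supply, 4 were raised, namely Hk2, Ldhb, Pdk1 and Cpt1a, again near the share of all genes, and 2 were at least 2-fold lower. Retinoid metabolism had 1 gene at 50 CPM, which was not raised. None of 23 ribosomal protein genes at that level was raised.

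Levels of other cell types' markers in the members varied by type. Of 8 markers of elongating spermatids at 50 CPM, 7 were at least 2-fold lower than in the other barcodes, and the 12 on the list summed to 3049, 4068, 6487 and 4102 CPM against 8147, 9163, 16231 and 11387 CPM. Leydig markers summed to 142, 112, 270.2 and 252 CPM against 683, 395, 1392 and 1229.8 CPM. No marker of Leydig, endothelial, peritubular myoid or fibroblast cells reached 50 CPM in the members of every library. For Leydig markers both results are partly set by the gate and are no independent trait of the members. The gate left out nuclei rich in its Leydig genes and placed them among the other barcodes, and the marker list shares genes with that rule. The macrophage list stood at 418, 342, 349.8 and 391 CPM against 279, 302, 349.96 and 279 CPM, and Mrc1, a mannose receptor also found outside macrophages, was its 1 raised gene. The spermatogonial list summed to 1254, 955, 1105 and 1187 CPM against 965, 859, 974 and 1184 CPM, lower in none of the libraries, and Auts2 among them was raised, and neither of 2 round spermatid markers nor any of 5 spermatocyte markers was.

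Transcripts of late germ cells were also read from droplets too poor to hold a nucleus. The protamine and transition protein genes Prm1, Prm2, Tnp1 and Tnp2 took 18251, 28819, 46713 and 33937 CPM of the UMIs in barcodes with at most 100 UMIs, which hold free RNA in place of a nucleus. In the members they took 2221, 3266, 5471 and 3187 CPM, which sets an estimated free RNA share of 12.2, 11.3, 11.7 and 9.39%. The estimate was 7.60, 6.48, 8.86 and 7.35% with 4 to 8 gate genes and 28.9, 22.9, 24.7 and 21.2% with exactly 3. This estimate takes all of these UMIs in a nucleus as free RNA. The same ratio was 34, 25.4, 29.6 and 26.8% in the other barcodes. There it cannot be read as a free RNA share, since germ cells that make these transcripts are among them. Whether nuclei with exactly 3 gate genes include such cells was not tested.

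Members made up a larger share of the barcodes in the Dhx37-/- libraries. The share was 1.03% (95% Wilson interval 0.845 to 1.25%) and 0.335% (0.230 to 0.487%) in WT, against 2.26% (1.96 to 2.59%) and 3.06% (2.74 to 3.42%) in Dhx37-/-, and these intervals cover counting error only. The WT libraries averaged 0.681% ± 0.489 and the Dhx37-/- libraries 2.66% ± 0.567 (SD over 2 libraries each), a difference of 1.98 percentage points. The groups did not overlap, but the exact two-sided permutation test of 2 against 2 libraries gave p = 0.333, the smallest it allows. A share cannot tell more Sertoli nuclei from fewer other nuclei, since both were counted in 1 total, and no cell number per testis was used here.

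Nuclei with 4 to 8 gate genes showed the same order, with 0.657, 0.211, 1.63 and 2.34% of barcodes. After thinning every barcode to 1000 UMIs, so that depth could not add gate genes, the shares were 0.462, 0.161, 1.18 and 1.83%, or 45, 13, 100 and 180 nuclei. Leydig nuclei were also a larger share in Dhx37-/-, with 2.06, 1.02, 4.10 and 3.55%. Members per Leydig nucleus were 0.498 and 0.329 in WT and 0.550 and 0.862 in Dhx37-/-, with means of 0.413 ± 0.119 and 0.706 ± 0.221 (SD, n = 2 each, exact permutation p = 0.333).

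**Figure D3:**
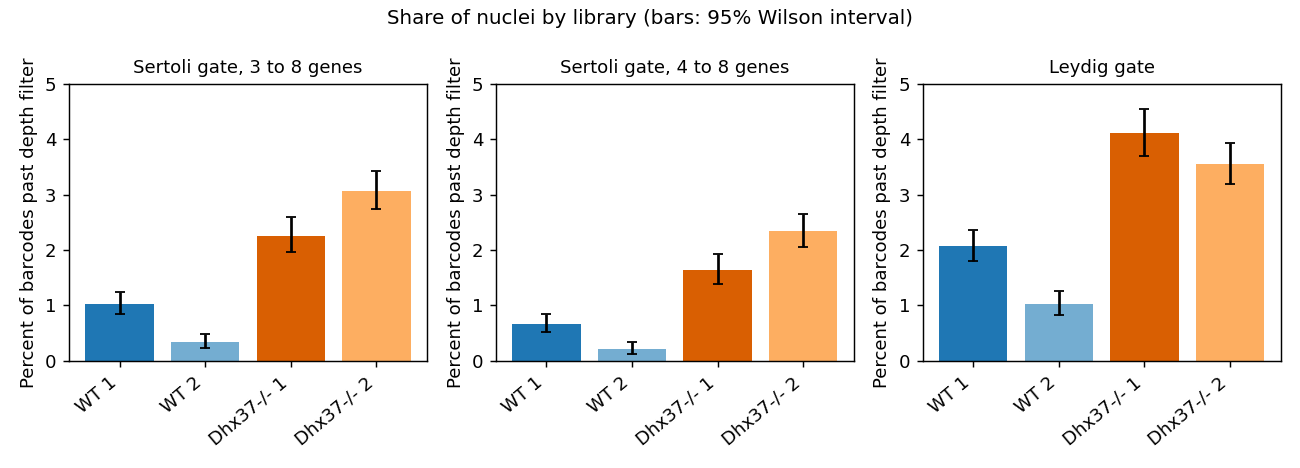
Share of barcodes past the depth filter (percent, axis from 0) that met the Sertoli gate with 3 to 8 genes, the gate with 4 to 8 genes, or the Leydig gate, with 1 bar per library and 95% Wilson intervals. Each Dhx37-/- bar stands above both WT bars in all 3 panels, at 2.26 and 3.06% against 1.03 and 0.335% for the Sertoli gate.

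Dhx37 itself was too sparse to check the deletion. It had 4, 3, 14 and 22 UMIs in the members, or 5.84, 17.7, 10.2 and 9.14 CPM, and 7.05, 11.9, 10.5 and 10.7 CPM in the other barcodes. The log2 fold change between genotypes in the members was 0.09 ± 0.67 (SE), with an adjusted p of 0.979 by edgeR's quasi-likelihood test. UMIs from the 3' end can be counted whether or not exon 2 is present.

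Between genotypes, edgeR's quasi-likelihood test on the library sums of the members called 0 of 12589 genes (0%) at a Benjamini-Hochberg adjusted p of 0.05. The smallest adjusted p was 0.0563, and 1665 genes (13.2%) had an unadjusted p under 0.05, of which 613 (4.87%) were higher and 1052 (8.36%) lower in Dhx37-/-. DESeq2 called 42 genes (0.334%), 1 higher and 41 lower. In the nuclei with 4 to 8 gate genes edgeR called 0 of 10329 genes (0%) and DESeq2 called 0, with 870 genes (8.42%) at an unadjusted p under 0.05, 496 higher (4.8%) and 374 lower (3.62%). Without scaling beyond library totals that count was 879, of which 612 were higher.

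The number of calls changed with the libraries in the fit. Without WT replicate 1 edgeR called 484 genes in the members, without WT replicate 2 998, without Dhx37-/- replicate 1 18 and without Dhx37-/- replicate 2 4, where a lone library is assumed to vary like the others. In the nuclei with 4 to 8 gate genes the same fits called 30, 521, 0 and 1. Fold changes below are log2 values of Dhx37-/- over WT with their SE, and none passed the adjusted threshold in the full set of libraries.

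Genes lower in the Dhx37-/- members were for the most part genes of the other barcodes. Ppfia2, a liprin scaffold protein, stood at 249.8 and 336 CPM in WT members and 59.9 and 69.8 CPM in Dhx37-/- members, a difference of -2.18 ± 0.28 (adjusted p = 0.0563). In nuclei with 4 to 8 gate genes it stood at 48.3, 33.5, 32.1 and 22.9 CPM and in those with exactly 3 at 989, 1058, 186 and 342 CPM, with 576, 534, 424 and 336 CPM in the other barcodes. The high values were thus in the nuclei at the edge of the gate, and among nuclei with 4 to 8 genes the difference was -0.83 (adjusted p = 0.613).

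Zan, which encodes the sperm protein zonadhesin, stood at 68.7 and 76.7 CPM in WT members and 15.3 and 15.8 CPM in Dhx37-/- members, and at 11.2, 0, 7.13 and 6.33 CPM with 4 to 8 gate genes. Mapk10, a JNK kinase, stood at 118, 94.3, 24.8 and 33.7 CPM in the members, 46.5, 8.37, 14.3 and 14.1 CPM with 4 to 8 gate genes and 238, 191, 151 and 157 CPM in the other barcodes. Gm13598, 4930434J06Rik, Sel1l2, Gm38505, Gm45554, Ttc29 and 4921504E06Rik completed the 10 with the smallest p, all lower in both Dhx37-/- libraries than in both WT libraries, as were 19.8% of all genes tested.

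Of the 1052 genes lower at an unadjusted p under 0.05 in the members, 989 (94.0%) had a higher mean level in nuclei with exactly 3 gate genes than in those with 4 to 8, against 51.9% of all 12589 genes tested. Likewise 987 (93.8%) were higher in the other barcodes than in nuclei with 4 to 8 gate genes, against 48.5% of all genes. Of the 613 genes that were higher, the shares were 45.2% and 44.5%. The median log2 fold change of the lower genes was -1.26 in all members and -0.78 over the 625 of them tested in nuclei with 4 to 8 gate genes. There 583 of the 625 had the same direction, and 227 were lower at an unadjusted p under 0.05. The median of the higher genes was 1.17 and, over 575, 1.10, with 575 in the same direction and 368 at that threshold. These genes were chosen in all members. The nuclei with 4 to 8 gate genes held 537799, 119500, 1122005 and 2052407 of the members' 684446, 169602, 1369338 and 2406364 UMIs. Agreement between the 2 sets is thus largely built in and is no independent evidence. The part of the larger share of 3-gene nuclei in WT in these differences was not tested.

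**Figure D4:**
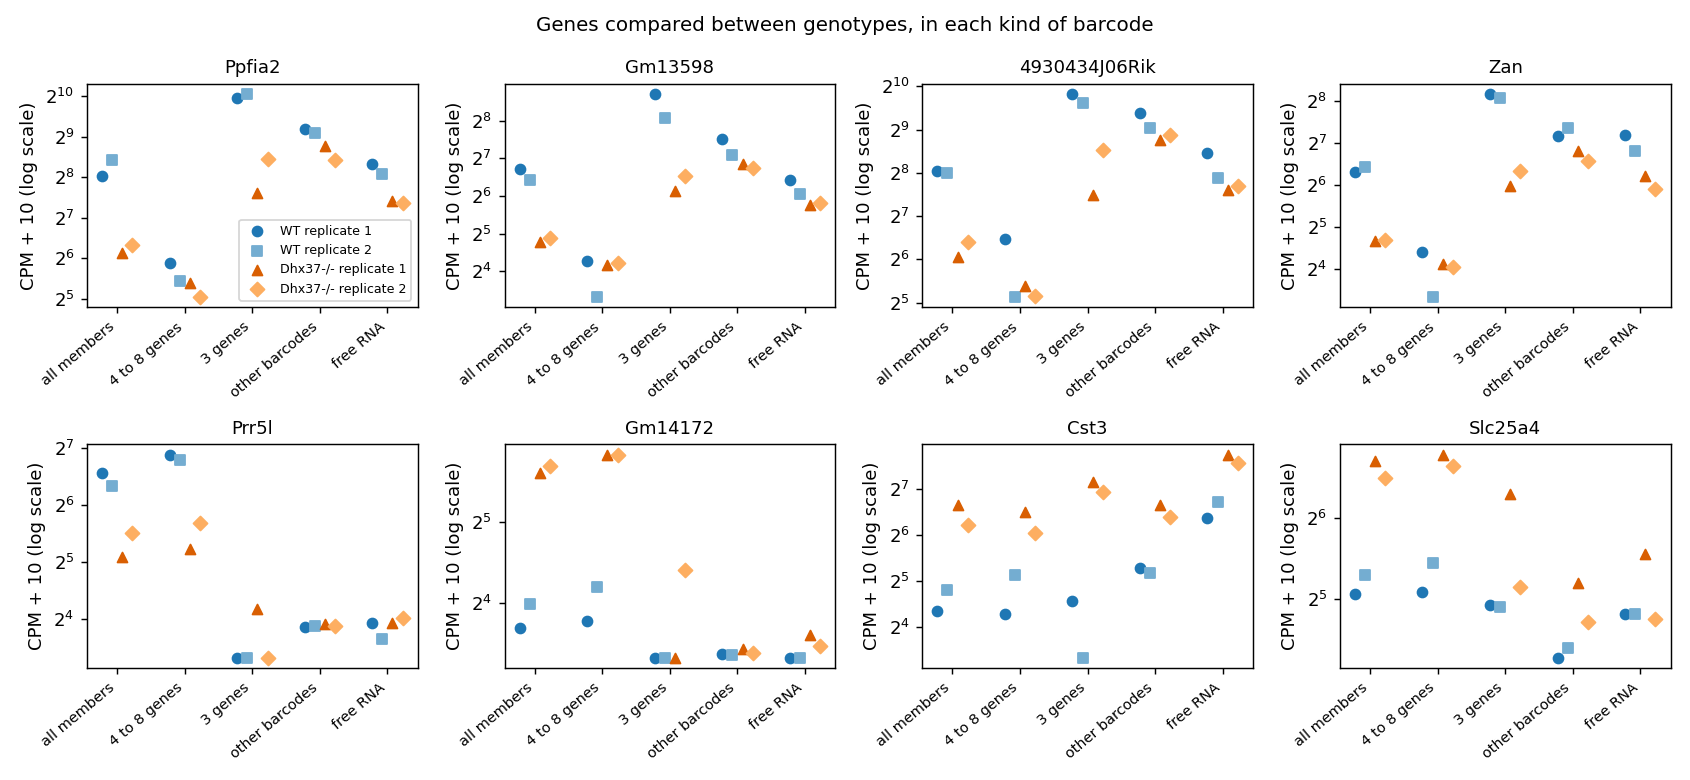
Levels of 8 genes (CPM + 10, log axis) in all members, members with 4 to 8 gate genes, members with exactly 3, other barcodes and free RNA, with 1 point per library. Ppfia2 and Zan differ between genotypes in all members while their levels with 4 to 8 gate genes are low in all 4 libraries, and Cst3 is higher in Dhx37-/- in every kind of barcode and in free RNA.

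With 4 to 8 gate genes, the lower genes with the smallest p included Prr5l, a partner of the kinase complex mTORC2, at 108 and 100.4 CPM in WT and 27.6 and 41.4 CPM in Dhx37-/-. Its difference was -1.66 ± 0.33 (adjusted p = 0.278), and the other barcodes held 4.58, 4.63, 5.13 and 4.65 CPM, far below the nuclei of the gate in either genotype. Cyp7b1, an oxysterol hydroxylase, stood at 72.5, 25.1, 20.5 and 14.6 CPM, with WT replicate 1 apart from the other libraries. Gm42826 had the smallest p, with 136, 159, 42.8 and 45.8 CPM, but it also stood at 142, 164, 41.9 and 44.9 CPM in the other barcodes and 113, 91.6, 21.7 and 21.7 CPM in free RNA. 1700020G17Rik, Ralyl, Gm11639, 4930405D01Rik, Gm43016 and Gm43263 were also among these 10.

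Among genes higher in Dhx37-/-, Gm14172 was read mainly in members. It stood at 2.92 and 5.9 CPM in WT and 38.7 and 42 CPM in Dhx37-/- members and at 0.294, 0.225, 0.771 and 0.421 CPM in the other barcodes. With 3 UMIs in WT and 154 in Dhx37-/-, the ratio of levels was 11.6, with a counting interval of 3.9 to 56.9. Tuba1a, an alpha tubulin, also had 3 UMIs in WT members and a ratio of 11.2 (3.77 to 55.1). Ndc80, a kinetochore protein, had 1 UMI in WT and 99 in Dhx37-/- members, a ratio of 22.4 (3.93 to 893).

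Slc25a4, the mitochondrial carrier of ADP and ATP, stood at 23.4 and 29.5 CPM in WT and 94.9 and 80.6 CPM in Dhx37-/- members, a difference of 1.74 ± 0.35 (adjusted p = 0.0618). In the other barcodes it was lower in every library, at 9.37, 11.1, 26.6 and 16.3 CPM, but also higher in Dhx37-/- without overlap. The effect in the members minus that in the other barcodes was 0.90 (edgeR, adjusted p = 0.961). Cst3, the secreted protease inhibitor cystatin C, stood at 10.2 and 17.7 CPM in WT and 90.6 and 64.8 CPM in Dhx37-/- members, a difference of 2.60 ± 0.44 (adjusted p = 0.0563). Cst3 differed the same way in the other barcodes, at 29, 26.2, 91 and 74.6 CPM, and in free RNA, at 73.3, 95.9, 207 and 179 CPM.

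Ptgds, a prostaglandin D synthase secreted into tubule fluid, stood at 32.1 and 47.2 CPM in WT and 147 and 114 CPM in Dhx37-/- members (1.77 ± 0.33). In the other barcodes it stood at 44.5, 28.2, 277 and 168 CPM, and the effect in the members minus that in the other barcodes was -0.47 (adjusted p = 0.986). Rpl8, Dbi and Gm49708 were also among the 10 with the smallest p. With 4 to 8 gate genes, Ubb, Eef1b2, Ebf1 and Atp6v1g1 took the places of Ptgds, Tuba1a, Dbi and Ndc80. Eef1b2, an elongation factor subunit, and Ebf1, a transcription factor, had 0 UMIs in the WT nuclei with 4 to 8 gate genes, and against a floor of 3 counts over the group they were at least 5.45-fold and at least 4.83-fold higher in Dhx37-/-.

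Ribosomal protein genes were higher in Dhx37-/- as a group. Of 78 tested in the members, 78 had a log2 fold change above 0 (77 with DESeq2's size factors), against 51.4% of all genes tested, and 44 an unadjusted p under 0.05 and higher, against 4.87% of all genes, though 0 passed adjustment. For 58 of them both Dhx37-/- libraries stood above both WT libraries, against 25.7% of all genes tested. The median difference was 0.90 against 0.02 over all genes, and in nuclei with 4 to 8 gate genes it was 0.91. There 74 of 75 were above 0 against 50.6% of all genes, 40 were higher at an unadjusted p under 0.05 against 4.8%, and 50 did not overlap between genotypes against 24.8%. Their summed level was 3238, 4499, 7472 and 5815 CPM in the members. Rpl8 stood at 24.8, 29.5, 100.05 and 86.4 CPM. Reads of these genes can be split with their many processed pseudogenes.

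The same genes were also higher in Dhx37-/- outside the Sertoli gate. Their median difference was 0.70 in the other barcodes, 0.65 in the Leydig nuclei and 0.51 in free RNA. Over all genes edgeR called 0 of 29686 (0%), 0 of 14103 (0%) and 11 of 17371 (0.0633%) in these, with 3720, 1041 and 1642 genes at an unadjusted p under 0.05, and DESeq2 was not run on them. The part of free RNA in the members' differences was not tested. Secreted carriers and protease inhibitors had the like pattern, with 14 of 15 above 0 in the members (51.4% of all genes), 10 higher at an unadjusted p under 0.05 (4.87%), 12 higher without overlap (25.7%) and a median of 0.95. In nuclei with 4 to 8 gate genes 15 of 15 were above 0 (50.6% of all genes), with a median of 0.80. Of these 15, 6 were higher at an unadjusted p under 0.05 (4.8%) and 8 were higher without overlap (24.8%). The median of the secreted list was 1.21 in the other barcodes, 0.68 in Leydig nuclei and 0.96 in free RNA. Markers of other cells went both ways, and what they contribute to these differences was not tested. Of the round spermatid markers 3 of 11 tested in the members were above 0 (median -0.48). Of them 7 were lower without overlap, against 19.8% of all genes. With 4 to 8 gate genes 6 of 8 round spermatid markers were above 0 (median 0.34). Spermatogonial markers had medians of -0.13 and -0.15 in these 2 sets, and spermatocyte markers 0.36 and 0.05. Macrophage, peritubular myoid and endothelial markers had 3, 2 and 1 genes tested in the members, with medians of -0.09, -0.31 and -0.75. Of the Leydig markers 7 of 7 tested in the members were above 0 (median 0.88), and 5 of 7 with 4 to 8 gate genes (median 0.80). Of the fibroblast markers 4 of 4 (median 1.18) and 3 of 3 (median 2.07) were. Of the elongating spermatid markers 9 of 12 (median 0.44) and 10 of 12 (median 0.78) were, and of the protamine and transition protein genes 4 of 4 (median 0.61) and 4 of 4 (median 0.98). Those 4 genes summed to 2221, 3266, 5470.5 and 3187 CPM in the members, where the genotypes overlapped, and to 1387, 1866, 4138 and 2494 CPM with 4 to 8 gate genes, where they did not.

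**Figure D5:**
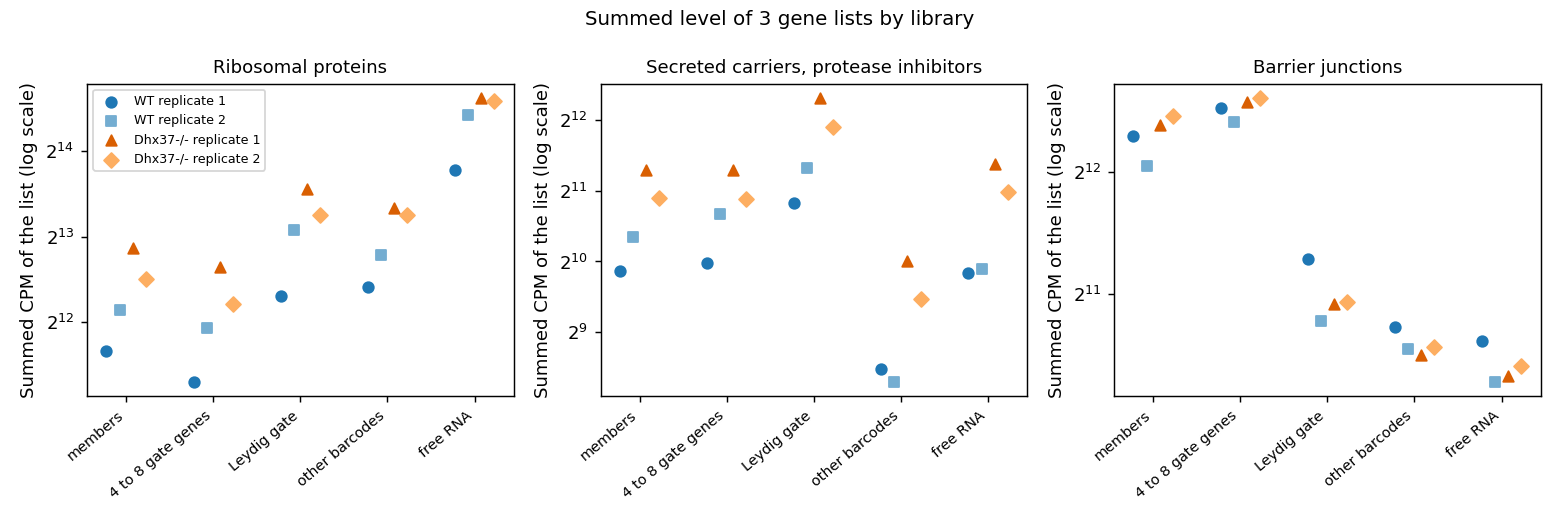
Summed CPM of ribosomal protein genes, of secreted carriers and protease inhibitors, and of barrier junction genes in the members, the members with 4 to 8 gate genes, Leydig nuclei, other barcodes and free RNA, with 1 point per library. In the members the ribosomal sum is 3238 and 4499 CPM in WT and 7472 and 5815 CPM in Dhx37-/-, and the barrier sum is 5025 and 4233 CPM in WT and 5349 and 5648 CPM in Dhx37-/-.

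Junction genes of the blood-testis barrier had medians nearer to 0. Their summed level was 5025 and 4233 CPM in WT and 5349 and 5648 CPM in Dhx37-/- members, and 5904, 5448, 6102 and 6251 CPM with 4 to 8 gate genes, without overlap in either set. Of 26 tested in the members, 0 were higher and 1, Patj, was lower at an unadjusted p under 0.05 (-0.77), and with 4 to 8 gate genes 0 of 25 reached it in either direction. The medians were 0.14 and -0.02, the latter 0.06 without scaling beyond library totals. Cdh2 stood at 757 and 560.1 CPM in WT and 576 and 659 CPM in Dhx37-/- members (-0.16 ± 0.31). Ctnna1 and Ctnnb1, the catenins that tie cadherins to actin, differed by 0.07 ± 0.32 and -0.01 ± 0.30. For Cdh2, Ctnna1, Ctnnb1 and Patj the libraries of the genotypes overlapped. Over the list, 9 of 26 genes were higher and 1 lower without overlap, against 25.7% and 19.8% of all genes.

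Regulators of Sertoli identity also gave no gene at an unadjusted p under 0.05, with 12 tested and medians of 0.23 in all members and 0.02 with 4 to 8 gate genes. Gata4 stood at 496 and 418 CPM in WT and 447 and 505 CPM in Dhx37-/- nuclei with 4 to 8 gate genes. Of 15 receptors, 1 was lower, Fgfr1, a fibroblast growth factor receptor (-1.14), no more than the 8.36% of all genes, and of 7 niche ligands none reached an unadjusted p under 0.05. The niche ligands had a median of 0.56, with 5 of 7 above 0 (51.4% of all genes) and 4 higher without overlap (25.7% of all genes). Their sum overlapped between genotypes. Rarb, a retinoic acid receptor, was the only one of 11 retinoid genes at an unadjusted p under 0.05, with a log2 fold change of -1.23, 1 of 11 being close to the 8.36% of all genes. Fgfr1 was again lower at that threshold with 4 to 8 gate genes (-1.10), none of 8 retinoid genes reached it, and Rarb was too low to be tested.

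Among 26 actin and cytoskeletal genes, Actb (0.93), Actg1 (0.89) and Tubb3 (1.09) were higher and Myh10 (-1.06) and Limk2 (-1.17) lower at an unadjusted p under 0.05, against 4.87% higher and 8.36% lower of all genes. Among nuclei with 4 to 8 gate genes the 3 higher genes also reached that threshold (0.88, 0.86 and 0.94), and Myh10 (-0.90) and Limk2 (-1.16) did not. Actb and Actg1 encode the cytoplasmic actins, and Myh10 and Limk2 a non-muscle myosin and a kinase of cofilin. Of 24 genes of glucose and lactate supply, the glycolytic enzyme Tpi1 was higher (1.86) and Hk1 (-0.88) and the monocarboxylate carrier Slc16a7 (-0.81) were lower, shares close to those of all genes. In the nuclei with 4 to 8 gate genes Hk1 was the only one of 20 to reach it (-0.98), with 1.62 for Tpi1 and -0.30 for Slc16a7. Lrp1, a scavenger receptor, was the 1 of 20 engulfment genes at that threshold (1.09), close to the 4.87% higher of all genes, and with 4 to 8 gate genes Lrp1 was higher (0.85) and Rab7, a GTPase of late endosomes, lower (-0.70).

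The p53 targets and the apoptosis genes were read because the study measures several of their proteins and RNAs. It reports higher p53 and p21 RNA in whole Dhx37-/- testis, which holds all its cell types. In a Sertoli cell line after Dhx37 knockdown it reports higher Bax RNA and lower Bcl2 and Mdm2 RNA. Of 16 genes of the p53 list 0 reached an unadjusted p under 0.05 in the members, with medians of 0.14 there and 0.22 with 4 to 8 gate genes. In the members 13 of the 16 were above 0, against 51.4% of all genes, and 4 were higher without overlap, against 25.7%, and with 4 to 8 gate genes 9 of 15 and 3 were. The list summed to 1188, 1149.8, 1251 and 1255 CPM in the members and 1299.7, 1314, 1360.1 and 1345 CPM with 4 to 8 gate genes, without overlap between genotypes in either. Trp53, which encodes p53, stood at 29.2, 41.3, 36.5 and 44.9 CPM (0.28 ± 0.37), and its target Cdkn1a, the cell cycle inhibitor p21, at 16.1, 5.9, 29.2 and 16.2 CPM (0.62 ± 0.57). Bax, a promoter of apoptosis, stood at 5.84, 17.7, 16.1 and 13.3 CPM and Bcl2, its antagonist, at 42.4, 47.2, 54 and 34.1 CPM. Cdkn1a was higher in both Dhx37-/- libraries than in both WT libraries by a small margin, and the other 3 genes overlapped between genotypes. Of 20 apoptosis genes 1 reached an unadjusted p under 0.05, Cycs, which encodes cytochrome c (1.58 ± 0.39, adjusted p = 0.105), close to the 4.87% of all genes, and the same gene did with 4 to 8 gate genes (1.49). In the members 17 of the 20 were above 0 and 9 were higher without overlap, against 51.4% and 25.7% of all genes. The list had a median of 0.38 and a sum of 782, 861, 1014 and 983 CPM. With 4 to 8 gate genes 15 of 20 were above 0 and 6 higher without overlap (50.6% and 24.8% of all genes). The median there was 0.31. The apoptosis list was also higher in the other barcodes, with 24 of 28 above 0. Its sums there were 535, 529, 671 and 638 CPM, without overlap. Its median was 0.47 in the other barcodes, 0.10 in Leydig nuclei and 0.36 in free RNA. The p53 list had medians of 0.14, 0.02 and 0.22 in these.

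DHX37 works on the small subunit processome, the particle in which the precursor of the small ribosomal subunit matures. Of 35 processome genes tested in the members 0 reached an unadjusted p under 0.05, with a median of 0.15, 22 above 0 (51.4% of all genes) and 10 higher without overlap (25.7%). They summed to 1005, 996, 1225 and 1181 CPM, without overlap between genotypes. In the other barcodes they summed to 703, 798, 898 and 914 CPM, also without overlap, with 33 of 42 above 0. Their median was 0.32 in the other barcodes, -0.21 in Leydig nuclei and 0.13 in free RNA. In nuclei with 4 to 8 gate genes 0 of 33 reached that threshold and 16 were above 0. Of 20 genes of the nucleolus and of large subunit assembly, Polr1a, the large subunit of RNA polymerase I (1.10), and Las1l (0.78) were higher at that threshold, against 4.87% of all genes. In the members 16 of the 20 were above 0 and 9 were higher without overlap, against 51.4% and 25.7% of all genes. The list summed to 834, 855, 1118 and 1062 CPM. Of 19 tested with 4 to 8 gate genes 11 were above 0 and 3 were higher without overlap, against 50.6% and 24.8%. Polr1a was the only one of 19 to reach that threshold with 4 to 8 gate genes (1.04), with 0.57 for Las1l. The medians were 0.26 in the members and 0.05 with 4 to 8 gate genes. In the other barcodes 17 of 22 genes of this list were above 0, with sums of 466, 486, 608 and 611 CPM. Its median was 0.34 in the other barcodes, 0.10 in Leydig nuclei and 0.17 in free RNA. Fbl, the nucleolar methyltransferase fibrillarin, stood at 54.1, 106, 119.8 and 89.8 CPM (0.50 ± 0.34).

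Whether the genotype effect in members differed from that in the other barcodes was tested in 1 fit over the 8 sums, with each library as a term. The test called 25 of 28414 genes (0.088%), 9 with a higher and 16 with a lower effect in the members, and the median over all genes was 0.07. Nxph1, a secreted ligand of neurexins, stood at 592 and 289 CPM in WT and 766 and 823 CPM in Dhx37-/- members, and at 67.8 and 45.7 against 35.3 and 45.6 CPM in the other barcodes, a difference of effects of 1.59 (adjusted p = 0.000735). The members were thus higher in both Dhx37-/- libraries, while in the other barcodes WT replicate 2 and Dhx37-/- replicate 2 were alike, at 45.7 and 45.6 CPM. Sh3gl2, an endophilin of membrane uptake, stood at 1008, 589.6, 861 and 972 CPM in the members and 81.9, 59.8, 38.2 and 39.3 CPM in the other barcodes (1.31, adjusted p = 0.0156).

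Susd1 stood at 46.8, 23.6, 86.9 and 79 CPM in the members and 8.61, 6.4, 4.89 and 5.03 CPM in the other barcodes (1.88, adjusted p = 0.015). Glp2r, the receptor of the gut peptide GLP-2, stood at 130.03, 342, 292 and 315 CPM and 50.2, 55.3, 31 and 44.2 CPM (1.31). For Sh3gl2, Glp2r and Zswim5 the members overlapped between genotypes. Rtl4 and Zswim5 had a lower effect in the members than in the other barcodes. Rtl4, a gene derived from a retrotransposon, stood at 1100.2, 902, 527 and 785 CPM in the members and 35.6, 16.4, 42.4 and 53.3 CPM in the other barcodes (-1.34, adjusted p = 0.015). Zswim5 stood at 139, 64.9, 84.7 and 89.8 CPM and 8.87, 5.14, 15.2 and 23.4 CPM (-1.52).

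With the members limited to nuclei with 4 to 8 gate genes, the same fit called 1 of 28118 genes. This was Pappa, a protease of insulin-like growth factor binding proteins, with 3.72, 0, 48.1 and 25.3 CPM in those nuclei, 13.1, 11.8, 56.2 and 30.8 CPM in all members and 127, 85.4, 78.4 and 79.8 CPM in the other barcodes. Its difference of effects was 4.44 there, where the median over all genes was 0.42, and 2.38 in all members. The level in WT was near 0 in the former, so that the fitted size depends on the prior count. The genes of this paragraph and the 2 before it were chosen from the 25 after their values were seen.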

How the data were processed

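Nuclei of whole testes were profiled by 10x 3' snRNA-seq in 4 libraries, 2 WT and 2 Dhx37-/-, grouped by the labels. The deposited matrices hold counts, whole numbers of UMIs per gene and barcode for 55357 genes, which the authors made with Cell Ranger (7.2.0 in the matrix headers). The submitters' notes also name Seurat 3.1.1. The study's methods and these notes name different genome builds, so no coordinates are given, and chromosomes were matched by gene ID for 52081 genes to mark X-linked ones.

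Members and gene lists were chosen with earlier results of these data known. Barcodes with at least 1000 UMIs and 500 to 5000 genes were kept, with no mitochondrial limit and with doublets kept (Scrublet in scanpy 1.11.5). The study used a minimum of 500 UMIs and tested single nuclei, whereas here UMIs were summed per library and tested across libraries with edgeR 4.0.16 (quasi-likelihood F-test, TMM scaling, filterByExpr, Benjamini-Hochberg adjustment at 0.05, R 4.3.3). Shares were compared by exact two-sided permutation (scipy 1.17.1). Identity levels added 10 CPM, and free RNA was read from barcodes with at most 100 UMIs. The scripts were tested on simulated data.

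Named genes were the gate genes and Dhx37, the 20 leading genes, up to 10 genes in each direction between genotypes, the 4 highest and any at an unadjusted p under 0.05 in each list, and 8 genes that the study measures. Genes named beside a count of raised genes, and those of the interaction test, were chosen after their values were seen. Alternatives were other gates, depth limits, scalings, filters, DESeq2 1.42.0, a replicate block, thinning, free RNA subtraction and each library left out. The nuclei with 4 to 8 gate genes were added after the data were seen, as were the tests of the other barcodes, Leydig nuclei and free RNA, and the crossed pairing. Depth limits WT replicate 2 most, with 27 members. Barcodes outside the depth filter were not used beyond the free RNA profile and the alternatives, and a few named genes are not reported here.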

Additional observations from a re-analysis of the deposited data

Results flagged for a closer look

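For 25 genes the genotype effect in the members differed from that in the other barcodes (edgeR, adjusted p under 0.05), and the values are log2 differences of these effects, each on the scale of 2 fold changes subtracted. The effect, not the level, was higher in the members for Ndc80 (4.26), Gm29266 (2.81), Pappa (2.38), Susd1 (1.88), Nxph1 (1.59), Plppr5 (1.43), 9630028H03Rik (1.41), Sh3gl2 (1.31) and Glp2r (1.31). Ndc80 had 0 and 1 UMIs in the WT members and Gm29266 had 3 and 1, so their fitted sizes depend on the prior count.

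The effect was lower in the members for Gm39204 (-3.70), Tmprss11b (-3.16), Tmprss11f (-2.83), 1700012I11Rik (-2.79), Glt8d2 (-2.47), Erich6b (-2.15), 4930474H20Rik (-1.91), Spdye4a (-1.89), C130073E24Rik (-1.86), Gm19324 (-1.60), Zswim5 (-1.52), Gm32828 (-1.40), Rtl4 (-1.34), Ppfia2 (-1.33), Fgf14 (-1.30) and 4930434J06Rik (-1.28). The largest rest on few UMIs in the members, with 13, 18, 7 and 0 for Gm39204, 8, 11, 3 and 5 for Tmprss11b and 20, 1, 2 and 6 for 1700012I11Rik. Gm39204, Tmprss11f and C130073E24Rik stood at 106, 130 and 112 CPM in members of WT replicate 2, against 19, 16.1 and 14.6 CPM in WT replicate 1. Fgf14 stood at 698, 819.6, 266 and 161 CPM in the members, 2679.9, 2714, 739.9 and 822 CPM in those with exactly 3 gate genes and 158, 25.1, 161 and 47.3 CPM in those with 4 to 8. With the members limited to 4 to 8 gate genes, 1 gene was called, Pappa.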

How the results depend on the processing

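The difference in the share of members was positive under all alternatives, from 1.19 points (thinned to 1000 UMIs) to 3.48 (at least 2 gate genes), and from 1.58 to 2.38 with 1 library left out. In the members, where edgeR called 0 genes, 224 were called with no filter on low counts, 42 by DESeq2, 4 without Scrublet doublets and 4 to 998 with 1 library left out. With 4 to 8 gate genes these were 36 with no filter and 0 to 521 with 1 library left out. The replicate block gave 16 calls in the members and 0 with 4 to 8 gate genes, and same-numbered libraries did not deviate together (correlations of -0.14 and -0.07), so the numbers are not treated as pairs. The crossed pairing, chosen after seeing the data, gave 303 and 10 calls.

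The 25 calls of the interaction became 43 with DESeq2's size factors (14 higher, 29 lower), 137 without scaling beyond totals (9 and 128), 545 with at least 2 gate genes, 1 with at least 4, 53 without Scrublet doublets, and 0 to 204 with 1 library left out (204 without WT replicate 1, 78 without WT replicate 2, 2 without Dhx37-/- replicate 1 and 0 without Dhx37-/- replicate 2). The balance of directions also turned. The main fit had 9 higher and 16 lower, but with at least 2 gate genes these were 535 and 10. Without Scrublet doublets they were 40 and 13, and with no upper limit of genes 12 and 8. Dhx37 in the members reversed, with log2 fold changes of -0.020 with the replicate block, -0.10 by DESeq2, -0.081 with no upper limit of genes, and from -0.79 (without WT replicate 1) to 0.61 (without WT replicate 2) with 1 library left out, below 0 also without Dhx37-/- replicate 1. Of the other values of named genes 244 in the members and 219 with 4 to 8 gate genes kept their direction and side of the threshold, and 98 and 38 kept their direction and passed it. The cause of these changes was not tested. With 27 members in WT replicate 2, low genes rest on few UMIs.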

Other observations

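Genes that the study names along its Sertoli trajectory, a list it chose on these samples and so no independent evidence, were tested in the members in 22 cases. At an unadjusted p under 0.05, Cycs, Actb, Actg1 and Rpl19 were higher in Dhx37-/- and Trp73, a p53 relative (-2.33 on the log2 scale), Cntnap2 (-1.19), Pdgfd (-1.05) and Cftr, a chloride channel (-1.01), were lower, against 4.87% and 8.36% of all genes. With 4 to 8 gate genes 3 of 21 were higher and 3 lower, against 4.8% and 3.62% of all genes. The lower genes there included a gene that did not reach the threshold in all members. Rpl19 (0.58) and Pdgfd (-0.91) no longer reached it there, and Trp73 was too low to be tested. Trp73 stood at 11.7, 29.5, 5.84 and 1.66 CPM in the members and 5.58, 33.5, 2.67 and 1.46 CPM with 4 to 8 gate genes.

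Of 15 cell cycle genes tested, Bub1, a checkpoint kinase of mitosis, was the 1 at that threshold, close to the 4.87% higher of all genes, with 3 UMIs in WT and 53 in Dhx37-/- members, a ratio of levels of 3.996 with a counting interval of 1.295 to 19.99. None of 11 reached it with 4 to 8 gate genes. Of 6 tested genes that the study follows in a Sertoli cell line after Dhx37 knockdown, Mapk10 was lower, against 8.36% of all genes, and the median was 0.02. The study reports Mapk10 as induced by the knockdown, the opposite direction. It reports genes moving both ways there, so a median over them has no set direction. In nuclei with 4 to 8 gate genes Mapk10 stood at 46.5, 8.37, 14.3 and 14.1 CPM (-1.48), where WT replicate 1 alone was high. The immature Sertoli and granulosa list summed to 73.1, 82.5, 88.4 and 82.7 CPM in the members, with 3 of its 15 genes at 0.

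Barcodes above the upper limit of 5000 genes numbered 13, 15, 204 and 302, of which 6, 1, 62 and 69 met the gene part of the Sertoli gate. The limit thus left out a larger number in the Dhx37-/- libraries, and without it the difference in share was 2.56 points.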
